A study of Bos taurus with 12 samples.

Results

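The respiratory chain in the inner mitochondrial membrane hands electrons to oxygen, and the proton gradient it builds drives ATP synthase. Complex III passes electrons from ubiquinol to cytochrome c, complex IV passes them from cytochrome c to oxygen, and ATP synthase turns the return flow of protons into ATP, on which urea and glucose synthesis in liver draw. The nuclear-encoded subunits of these complexes are described here in the liver of newborn calves. Members are the genes whose bovine RefSeq symbol, looked up by gene identifier, begins with UQCR (complex III), with COX4, COX5, COX6, COX7 or COX8 (complex IV), or with ATP5 (ATP synthase). They number 45 of the 30336 genes in the count files: 8 of complex III, 19 of complex IV and 18 of ATP synthase. The catalytic subunits encoded by mitochondrial DNA are not analysed here.

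The calves were Holstein heifers born to dams given, for the last 28 d before calving, either a control diet (CON) or that diet with methionine protected from the rumen by ethyl cellulose (MET). After birth they were managed alike, and liver was sampled by puncture biopsy at 4 d of age, with 6 libraries per diet. Library index and diet cannot be told apart, because each diet had its own set of indices. CON replicates 1 and 4 are near-identical in their counts (chi-square per gene 1.33), as are MET replicates 1 and 3 (1.24), while the other 64 of 66 pairs of libraries start at 25.1. MET replicate 5 stands apart over all genes, at 52.0 to 132.9 against the other libraries, where pairs without it reach 82.1 (CON replicate 5 with MET replicate 4). Each near-identical pair is counted as 1 sample, which leaves 5 samples per diet, and a fit over these 10 samples, with the reads of a pair summed, was run beside that over the 12 libraries. Levels are in CPM, reads per 1000000 counted reads of the library, scaled by the TMM factors that the fits use. A mean is given ± SD with n = 5 for each diet, a pair entering as the average of its libraries. Counted reads ran from 8277789 to 10397604 per library.

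The tissue label was checked against cell type markers. All 12 listed hepatocyte genes passed the count filter, and their summed level was 185099 ± 21247 CPM in CON and 152068 ± 13683 CPM in MET. ALB, the most abundant of them, was at 70821 (the pair), 63572, 39110, 64870 and 72178 CPM in CON and at 45560 (the pair), 33439, 36234, 30388 and 51284 CPM in MET. CON replicate 3 lay inside the MET range and the other 4 CON samples were above every MET sample. By the tests described below, edgeR called 0 of the 12 genes in either fit. ALB, at a log2 fold change of −0.65 in the 12 libraries and −0.66 in the 10 samples, was the 1 at an unadjusted p of at most 0.05, and DESeq2 called it, lower in MET, in both fits. Of all tested genes, in either direction, edgeR called 4.413% in the 12 libraries and 0% in the 10 samples, and DESeq2 9.946% and 4.723%. In either direction 20.55% and 16.36% were at that unadjusted p.

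Most of the subunit genes had a higher fitted level in MET, few of them past a test. Of the 45 members, 38 passed the count filter, and 37 of these 38 had a log2 fold change (MET over CON) above 0 in the 12 libraries, against 49.6% of the 13212 genes tested. The median log2 fold change was 0.29 over the 38 members and −0.0031 over all tested genes. Over the 10 samples 36 members were above 0, against 49.6% of all genes, with a median of 0.27. Differences were tested with edgeR (quasi-likelihood F test, p adjusted over all tested genes by Benjamini-Hochberg), and an adjusted p of at most 0.10 counts as a call. By that test 1 member, UQCR11, was called in the 12 libraries, higher in MET as were 2.09% of all tested genes. In the 10 samples edgeR called 0 members and 0% of all genes. At an unadjusted p of at most 0.05 the count was 12 members in the 12 libraries and 5 in the 10 samples, all higher in MET, beside 10.2% and 7.86% of all genes. DESeq2 called 4 members in the 12 libraries (UQCR11, COX6B1, COX7A1 and ATP5IF1) and 1 in the 10 samples (UQCR11), all higher in MET, beside 4.79% and 2.23% of all genes. No member had all 5 MET samples above all 5 CON samples (1.94% of all tested genes) or all 5 below (1.77%). On CPM by library size without the TMM factors, a scale added after seeing the data, UQCR11 was the 1 member with all 5 above, beside 1.69% of all tested genes.

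**Figure D1:**
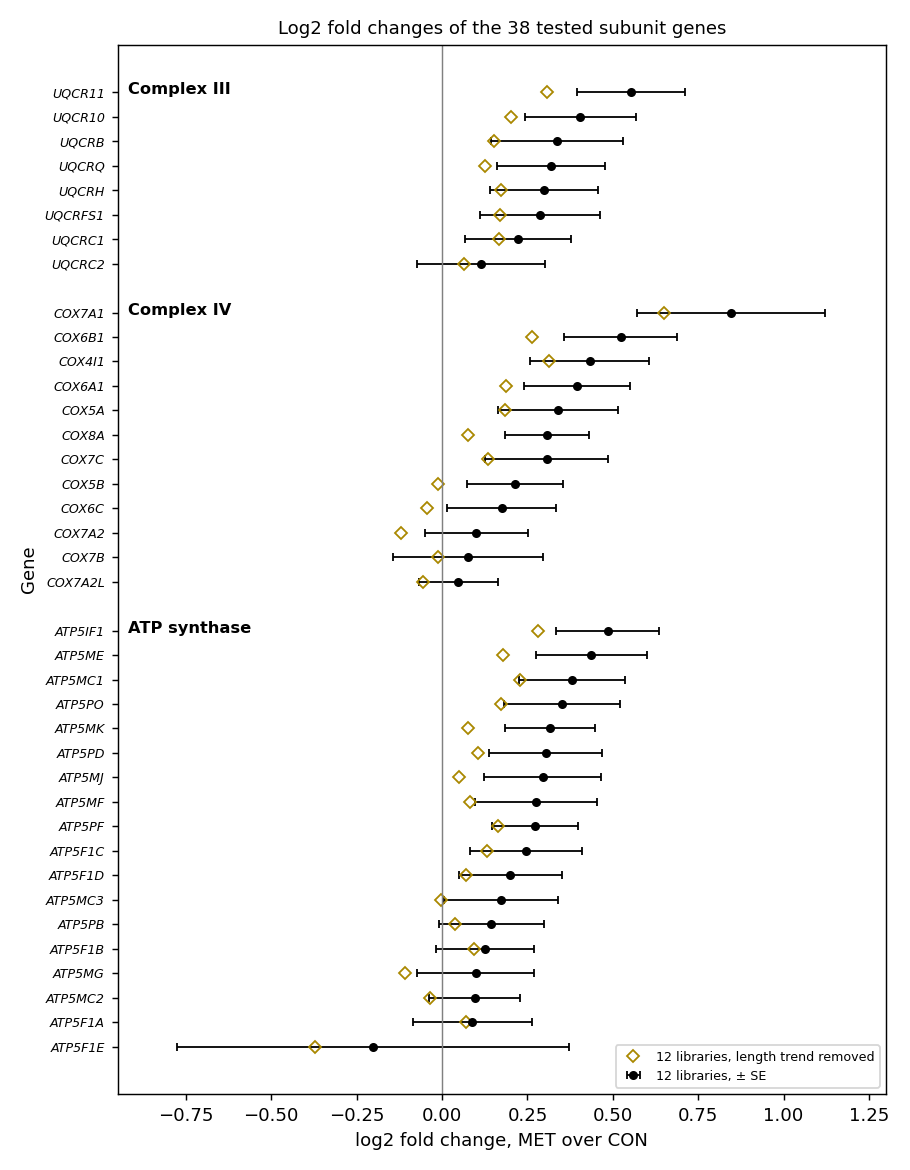
Log2 fold change, MET over CON, of each tested member by complex, for the 12 libraries with standard errors and with the trend on gene length removed. 37 of 38 members are above 0 in the 12 libraries and 29 with the length trend removed.

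Most members are short, and fold changes followed gene length in these libraries. Exonic length ran from 190 to 1912 bases in the 38 tested members, with a median of 686.5 bases against 2807 bases over all tested genes. When all tested genes were put in 5 bins by length, the median log2 fold change went from 0.15 in the shortest bin to −0.14 in the longest. In the shortest bin (67 to 1533 bases) 71.1% of genes were above 0, and its 34 members had a median of 0.30 with 33 above 0. Of the genes in that bin 5.26% were called by edgeR and 21.8% were at an unadjusted p of at most 0.05, higher in MET, beside 1 and 12 of its 34 members. The next bin (1534 to 2339 bases) had a median of 0.040, and its 4 members had a median of 0.12. In both bins the median over members was above the median of the bin. With the trend on length removed from every library, 29 of 38 members stayed above 0, against 53.2% of all genes, and the median over members was 0.12 against 0.019 over all genes. That adjustment left 0 members called by edgeR (0.954% of all genes were called, higher in MET) and 2, UQCR11 and COX6B1, at an unadjusted p of at most 0.05 (9.62%). The same adjustment in the 10 samples gave 28 members above 0 (53.7% of all genes), a median of 0.083, 0 called (0%) and 1, UQCR11, at that unadjusted p (7.64%). The slope of log2 CPM on log2 length was 0.0664, −0.0287, 0.0945, 0.0737, 0.0211 and 0.0286 in CON replicates 1 to 6 and −0.0192, −0.0487, −0.0072, −0.0668, 0.00228 and −0.116 in MET replicates 1 to 6. CON replicate 2 lay among the MET libraries, so the diets overlap in this slope, and the source of the trend was not tested. The 45 members are spread over 21 chromosomes, with at most 5 on any of them (chromosome 18).

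Complex III had all 8 members tested. Each of the 8 was above 0 in the 12 libraries, the 10 samples and both fits with the length trend removed, with medians of 0.31, 0.29, 0.17 and 0.13. Summed over the 8 genes the level was 850 ± 101 CPM in CON and 1018 ± 243 CPM in MET. Per length, levels ran from 72.4 CPM per kb for UQCRC2 to 207 CPM per kb for UQCRQ.

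UQCR11, a small accessory subunit of complex III, was the called member. The levels were 43.3 (the pair), 52.2, 45.8, 45.7 and 38.4 CPM in CON and 48.7 (the pair), 83.5, 61.2, 62.8 and 89.3 CPM in MET. Of the MET samples the pair alone fell inside the CON range, under CON replicate 2, and the other 4 were above every CON sample. The log2 fold change was 0.55 (SE 0.16) in the 12 libraries, with an adjusted p of 0.0889 (edgeR, Benjamini-Hochberg). Over the 10 samples it was 0.62 (SE 0.17), with an adjusted p of 0.175 (edgeR, Benjamini-Hochberg) and an exact two-sided permutation p of 0.0159 over the 252 arrangements. Removing the length trend gave 0.31 in the 12 libraries and 0.36 in the 10 samples. The call depends on which libraries are present. It was kept without CON replicate 2 or MET replicate 3, and lost without any of CON replicates 1, 3, 4, 5 and 6 or MET replicates 1, 2, 4, 5 and 6, where the log2 fold change lay between 0.44 and 0.62. The gene lies on chromosome 7 at 45592773 to 45595693 (UMD 3.1.1).

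UQCRQ, an accessory subunit that binds near ubiquinone, was at 97.3 (the pair), 138, 109, 129 and 109 CPM in CON and 124 (the pair), 173, 137, 100 and 192 CPM in MET. MET replicates 2 and 6 were above every CON sample and the other 3 MET samples lay within the CON range. Its log2 fold change was 0.32 (SE 0.16) in the 12 libraries and 0.31 in the 10 samples. UQCR10, another small subunit, was next in level at 164 CPM per kb. Its log2 fold change was 0.40 (SE 0.16, unadjusted edgeR p 0.0261) and 0.38 (SE 0.18, unadjusted edgeR p 0.0556). UQCRFS1 is the Rieske iron-sulfur protein, which takes electrons from ubiquinol. It was at 121 (the pair), 166, 146, 175 and 164 CPM in CON and 178 (the pair), 218, 215, 99.1 and 199 CPM in MET. MET replicate 5 was under every other sample, and the other 4 MET samples were above every CON sample. For UQCRFS1 the log2 fold change was 0.29 (SE 0.18) and 0.24.

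The core proteins UQCRC1 and UQCRC2 frame the matrix side of the complex. UQCRC1 was at 154 (the pair), 185, 163, 188 and 187 CPM in CON and 206 (the pair), 242, 211, 113 and 225 CPM in MET. Again MET replicate 5 was the lowest of the 10 samples and the other 4 MET samples were above every CON sample. Its log2 fold change was 0.22 (SE 0.16) and 0.18. UQCRC2 was nearest to 0 of the 8 genes, at 0.12 (SE 0.19) and 0.048. In the 10 samples its direction changed without MET replicate 4 (−0.062), MET replicate 2 (−0.021) or the CON pair (−0.018).

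Complex IV had 12 of its 19 members tested. All 12 were above 0 in the 12 libraries, 11 in the 10 samples (COX7A2L was the exception), and 7 with the length trend removed in either fit. The medians were 0.31 in the 12 libraries, 0.27 in the 10 samples, 0.11 with the length trend removed and 0.056 with it removed in the 10 samples. edgeR called 0 of the 12 in the 12 libraries and in the 10 samples, with 5 and 2 at an unadjusted p of at most 0.05 (10.2% and 7.86% of all genes, and 21.8% of the shortest bin in the 12 libraries). DESeq2 called 2 (COX6B1 and COX7A1) and 0, beside 4.79% and 2.23% of all genes. The summed level was 1063 ± 119 CPM in CON and 1311 ± 314 CPM in MET.

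COX4I1, the ubiquitous form of a subunit that binds ATP, gave the most reads of the complex IV genes. The levels were 205 (the pair), 256, 213, 265 and 240 CPM in CON and 288 (the pair), 401, 285, 184 and 421 CPM in MET. MET replicate 5 was the lowest of all and the other 4 MET samples were above every CON sample. The log2 fold change was 0.43 (SE 0.17) in the 12 libraries and 0.42 in the 10 samples, or 0.31 and 0.30 with the length trend removed. COX4I1 was called by edgeR in the 12 libraries without MET replicate 5 (0.55), a sample singled out after its values were seen. COX6B1 faces the intermembrane space and was at 25.4 (the pair), 39.5, 29.3, 38.1 and 30.1 CPM in CON and 41.4 (the pair), 58.0, 40.1, 31.6 and 57.5 CPM in MET. The groups overlap through MET replicate 5. Its log2 fold change was 0.52 (SE 0.17) and 0.49, with an exact two-sided permutation p of 0.0397 over the 10 samples. With the length trend removed it was 0.26 and 0.22. COX6B1 was called by edgeR in the 12 libraries without CON replicate 2 (0.60) or MET replicate 5 (0.61). With any 1 sample left out of the 10, edgeR called 0 members.

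COX5B, a zinc-binding subunit, was the most abundant complex IV gene per length, at 330 CPM per kb. It was at 132 (the pair), 138, 141, 150 and 154 CPM in CON and 149 (the pair), 216, 167, 112 and 190 CPM in MET. MET replicate 5 was the lowest and MET replicates 2, 4 and 6 were above every CON sample. COX5B was at a log2 fold change of 0.21 (SE 0.14) and 0.22, but −0.013 and −0.016 with the length trend removed. COX6A1, the form of its subunit found in liver, was next in level at 294 CPM per kb. It was at a log2 fold change of 0.40 (SE 0.16) and 0.38, and at 0.19 and 0.16 with the length trend removed. edgeR called it in the 12 libraries without MET replicate 5 (0.50), but not in the 10 samples without it.

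Several complex IV subunits come in tissue forms, and the forms known from other tissues were nearly silent, subunits VIIa and VIIb apart. COX4I1 stood at 243 CPM per kb and its lung form COX4I2 at 0.0958 CPM per kb. COX6A1 had 294 CPM per kb, and its striated-muscle form COX6A2 had no read in any library. COX8A stood at 216 CPM per kb and its striated-muscle form COX8B at 1.19 CPM per kb. COX4I2, COX6A2, COX6B2, COX7ALP1, COX7B2, COX8B and COX8C were the 7 members that missed the count filter, and COX6A2, COX7ALP1 and COX8C were at 0 in all 12 libraries. COX7B2, a form of subunit VIIb, stood at 1.75 CPM per kb, not far under COX7B at 2.69 CPM per kb, and reached 3.50 CPM in MET replicate 6.

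COX7A1, the heart and muscle form of subunit VIIa, was at 18.1 (the pair), 13.2, 15.3, 15.2 and 16.1 CPM in CON and 43.6 (the pair), 20.8, 35.6, 15.2 and 13.5 CPM in MET. The MET pair and MET replicate 4 were far above CON, MET replicate 2 was just above, and MET replicates 5 and 6 lay within the CON range. It had the largest log2 fold change of the 38 members, at 0.85 (SE 0.28) in the 12 libraries and 0.73 in the 10 samples, or 0.65 and 0.52 with the length trend removed. edgeR called it in neither: the adjusted p in the 12 libraries was 0.120 (Benjamini-Hochberg), and the exact two-sided permutation p over the 10 samples was 0.159. In the 12 libraries without MET replicate 6 the log2 fold change was 0.99 and past the edgeR threshold, as was the 0.97 without MET replicate 5. Those fits count the near-identical MET libraries separately, and the 10 samples without either replicate gave 0 members called. With the MET pair left out of the 10 samples the log2 fold change was 0.44. Of 12 skeletal muscle markers 0 passed the count filter, their summed level was at most 0.877 CPM in any sample, and ACTA1, CKM and MYH2 had no read.

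COX7A2, the form of subunit VIIa usual in liver, stood at 27.7 CPM per kb, beside 55.8 CPM per kb for COX7A1. Its log2 fold change was 0.10 (SE 0.15) and 0.097, and −0.12 and −0.13 with the length trend removed. COX7A2L, which joins complex III to complex IV in supercomplexes, was at 69.7 (the pair), 90.0, 77.6, 81.4 and 76.6 CPM in CON and 87.8 (the pair), 96.0, 74.5, 62.4 and 72.1 CPM in MET. The samples of the diets are mixed throughout that range. The log2 fold change of COX7A2L was 0.048 (SE 0.12) in the 12 libraries and −0.0087 in the 10 samples. COX7B had the lowest level per length of the tested members. Reads that map to several places were not counted, so the levels of genes with near-identical copies elsewhere in the genome are uncertain. COX7A2, COX7B, COX6B1, UQCRH and ATP5F1E may be among them, but which members have such copies was not tested.

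**Figure D2:**
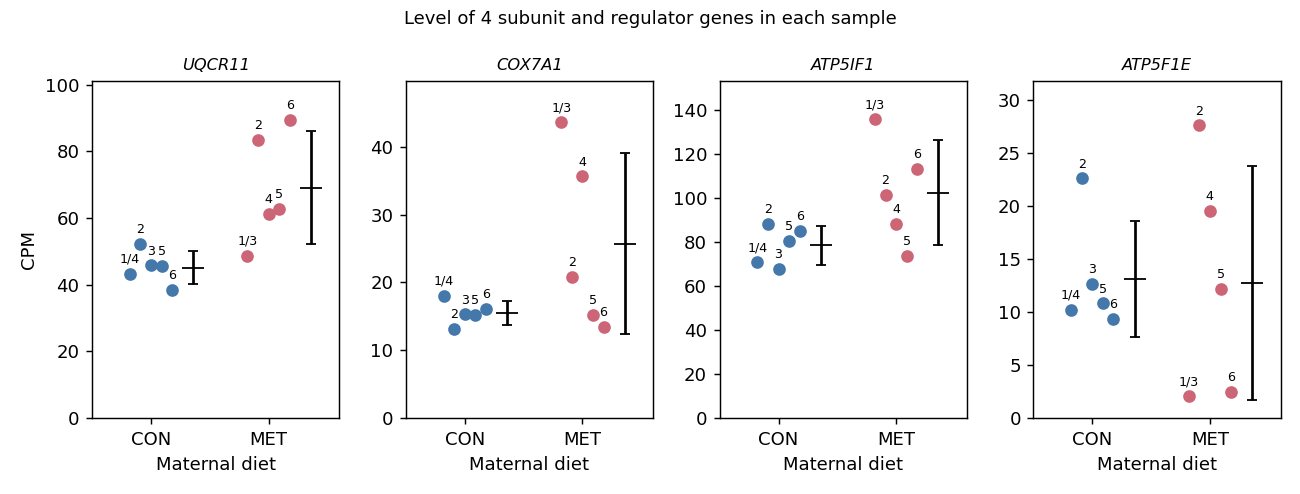
TMM-scaled CPM in each of the 10 samples for 4 members. The groups overlap in each of the 4 on this scale.

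ATP synthase had all 18 members tested, 17 of them above 0 in the 12 libraries and in the 10 samples, and 14 and 13 with the length trend removed. The medians in the same order were 0.26, 0.25, 0.080 and 0.053. edgeR called 0 of the 18 in the 12 libraries and in the 10 samples, with 5 and 2 at an unadjusted p of at most 0.05, where the shares were again 10.2% and 7.86% of all genes and 21.8% of the shortest bin. DESeq2 called 1 (ATP5IF1) and 0, beside 4.79% and 2.23% of all genes. The summed level was 2865 ± 364 CPM in CON and 3212 ± 686 CPM in MET.

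The 5 genes of the catalytic head had a median of 0.13 in the 12 libraries and 0.064 in the 10 samples, with 0 called by edgeR or DESeq2. At an unadjusted edgeR p of at most 0.05 there were 0 in either, beside 10.2% and 7.86% of all genes. ATP5F1B, the catalytic beta subunit, was at 420 (the pair), 595, 466, 553 and 558 CPM in CON and 577 (the pair), 627, 566, 368 and 573 CPM in MET. MET replicate 5 was under every other sample, MET replicate 2 was above every CON sample, and the other 3 MET samples lay in the upper part of the CON range. Its log2 fold change was 0.13 (SE 0.14) and 0.064. ATP5F1A, the alpha subunit, was at a log2 fold change of 0.089 (SE 0.17) and 0.019. In level per length, ATP5F1A stood at 294 CPM per kb, near ATP5F1B at 299.5 CPM per kb. ATP5F1E, the epsilon subunit, was the exception to the direction. Its levels were 10.2 (the pair), 22.6, 12.7, 10.8 and 9.32 CPM in CON and 2.10 (the pair), 27.6, 19.5, 12.2 and 2.47 CPM in MET. The MET pair and MET replicate 6 were the lowest samples and MET replicate 2 the highest. The log2 fold change was −0.20 (SE 0.57) and −0.048, with −0.93 by voom and −0.74 with a replicate block. In the 12 libraries its direction changed without CON replicate 2 (0.042), MET replicate 1 (0.013), MET replicate 3 (0.021) or MET replicate 6 (0.0029). The same held in the 10 samples without CON replicate 2 (0.23), the MET pair (0.24) or MET replicate 6 (0.21).

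The 12 genes of the stalks and the membrane part were all above 0 in the 12 libraries and in the 10 samples, with a median of 0.29 in both, and 9 and 8 of them with the length trend removed. edgeR and DESeq2 called 0 of the 12, where edgeR called 2.09% and 0% of all genes higher in MET and DESeq2 4.79% and 2.23%. At an unadjusted edgeR p of at most 0.05 there were 4 and 1, beside 10.2% and 7.86% of all genes. In the shortest bin of length that share was 21.8% in the 12 libraries. ATP5PD, in the peripheral stalk, was the most abundant ATP synthase gene per length, at 320 CPM per kb. It was at 153 (the pair), 196, 155, 193 and 184 CPM in CON and 194 (the pair), 278, 203, 133 and 276 CPM in MET. MET replicates 2 and 6 were far above CON and MET replicate 5 was the lowest sample. For ATP5PD the log2 fold change was 0.30 (SE 0.17) and 0.30. ATP5ME, a small membrane subunit named after its values were seen, was the highest of the 12 at 0.44 (SE 0.16) and 0.46.

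ATP5MC1, ATP5MC2 and ATP5MC3 encode the same mature ring subunit and stood at 141, 106 and 214 CPM per kb. ATP5MC1 was at a log2 fold change of 0.38 (SE 0.16) in the 12 libraries and 0.32 in the 10 samples. For ATP5MC2 it was 0.095 (SE 0.13) and 0.092, and −0.036 with the length trend removed. That of ATP5MC3 was 0.17 (SE 0.17) and 0.14, and −0.0023 with the length trend removed. Whether these 3 differ in their response was not tested.

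ATP5IF1 blocks ATP synthase from running in reverse. The levels were 70.7 (the pair), 88.1, 67.8, 80.6 and 85.0 CPM in CON and 136 (the pair), 102, 88.0, 73.7 and 113 CPM in MET. The MET pair was the highest, and MET replicates 4 and 5 lay within the CON range. The log2 fold change was 0.48 (SE 0.15) in the 12 libraries, with an adjusted p of 0.107 (edgeR, Benjamini-Hochberg), just above the threshold. Over the 10 samples it was 0.39 (SE 0.16), with an exact two-sided permutation p of 0.0714. Removing the length trend took it to 0.28 in the 12 libraries and 0.17 in the 10 samples. It was 0.26 with the MET pair left out of the 10 samples. Without MET replicate 5 it was 0.57 in the 12 libraries and called by edgeR.

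The summed level of the members was 3982 (the pair), 5379, 4423, 5196 and 4906 CPM in CON and 5349 (the pair), 6827, 5588, 3597 and 6349 CPM in MET. MET replicate 5 was the lowest of the 10 samples and MET replicates 2 and 6 the highest, so the groups overlap. Across the 38 tested members, MET replicate 5 was the lowest sample in 22 and the CON pair in 8, as they were in 9.66% and 10.6% of all tested genes. MET replicate 2 was the highest in 22 members and MET replicate 6 in 13, beside 8.27% and 15.0% of all tested genes. Without the TMM factors MET replicate 5 was lowest in 27 and MET replicate 2 highest in 34, beside 18% and 23.5% of all tested genes. The sum averaged 4777 ± 573 CPM in CON and 5542 ± 1238 CPM in MET, or 6028 ± 682 CPM over the 4 MET samples without replicate 5.

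Single libraries carry weight in the counts. MET replicate 5, which stands apart over all genes, was singled out after its values were seen. Leaving it out of the 12 libraries put 6 members past the edgeR threshold (ATP5IF1, COX6A1, COX4I1, COX6B1, COX7A1 and ATP5MK, but not UQCR11), beside 1.34% of all genes, all higher in MET. At an unadjusted p of at most 0.05 there were then 25 members (9.78% of all genes), and the median log2 fold change was 0.38. The 10 samples without it gave 0 called (0%) and 22 at that unadjusted p (7.08% of all genes). The number called was 2 without CON replicate 2 (UQCR11 and COX6B1, with 4.24% of all genes called in either direction), 1 without MET replicate 3 (UQCR11, 2.5%), 1 without MET replicate 6 (COX7A1, 1.62%) and 0 without any of the other 8 libraries. At the unadjusted p it was 5 without CON replicate 1, 6 without CON replicate 4, 5 without MET replicate 2 and 6 without MET replicate 6, all higher in MET, beside 8.45%, 8.08%, 9.25% and 8.54% of all genes. Without MET replicate 2 the median of the ATP synthase genes was 0.15 in the 12 libraries, and the medians in the 10 samples were 0.16 for complex III, 0.15 for complex IV and 0.12 for ATP synthase.

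**Figure D3:**
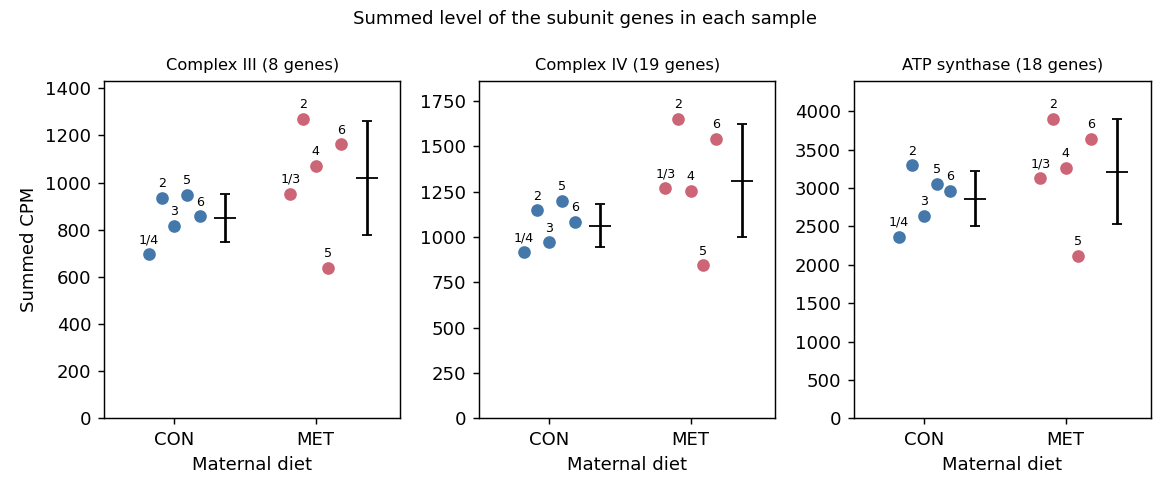
Summed TMM-scaled CPM of the members of each complex in the 10 samples. The diets overlap in each complex, and MET replicate 5 is the lowest sample in each.

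Other gene families with many short genes were placed beside the members. The 37 nuclear complex I genes had a median of 0.29 in the 12 libraries with 36 above 0, and 0.12 with the length trend removed. edgeR called 0 of them in the 12 libraries and in the 10 samples, with 16 and 11 at an unadjusted p of at most 0.05, and DESeq2 called 5 and 0. The 78 mitochondrial ribosome genes had a median of 0.30 with 76 above 0, and 0.16 with the trend removed. edgeR called 7 in the 12 libraries and 0 in the 10 samples, with 38 and 33 at that unadjusted p, and DESeq2 called 20 and 7. The 80 tested genes of the cytosolic ribosome had a median of 0.17 with 71 above 0, and 0.011 with the trend removed. edgeR called 1 and 0 of these, with 16 and 16 higher in MET at that unadjusted p, and DESeq2 called 10 and 3 higher in MET. Over the 10 samples the medians of these families were 0.28, 0.28 and 0.20. With the length trend removed from the 12 libraries edgeR called 0 genes of complex I, 1 of the mitochondrial ribosome and 0 of the cytosolic ribosome, with 3, 21 and 2 higher at that unadjusted p. The shares of all genes higher at that p were 10.2% before and 9.62% after the adjustment, and 7.86% in the 10 samples. Of all genes edgeR called 2.09% higher in the 12 libraries, 0.954% after the adjustment and 0% in the 10 samples. DESeq2 called 4.79% higher in the 12 libraries and 2.23% in the 10 samples. In the shortest bin of length 5.26% were called by edgeR and 21.8% were at that p in the 12 libraries.

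Genes that assemble complex IV or supply its cofactors were listed apart together with its subunit NDUFA4, and 26 genes of that list were tested. edgeR called 3 in the 12 libraries, each higher in MET, and 0 in the 10 samples, beside 2.09% and 0% of all genes. DESeq2 called 4 and 3, beside 4.79% and 2.23% of all genes. At an unadjusted p of at most 0.05 edgeR had 11 higher in the 12 libraries and 6 in the 10 samples, with 0 lower in either. The shares of all genes higher at that p were 10.2% and 7.86%. The medians of the list were 0.22 and 0.24. COX19 is a copper-handling assembly factor. Its levels were 24.3 (the pair), 25.6, 21.2, 29.2 and 21.9 CPM in CON and 31.1 (the pair), 37.2, 36.3, 30.7 and 31.7 CPM in MET. All 5 MET samples were above all 5 CON samples, as in 2 of the 26 tested genes of the list and 1.94% of all tested genes. On CPM without the TMM factors 4 of the 5 were. COX19 rose by 0.43 on the log2 scale (SE 0.10) in the 12 libraries, with an adjusted p of 0.0635 (edgeR, Benjamini-Hochberg), and was at 0.45 in the 10 samples, with an adjusted p of 0.174 by the same edgeR test and adjustment. The exact two-sided permutation p over the 10 samples was 0.00794, the smallest that 252 arrangements can give. It was still called with the length trend removed from the 12 libraries (0.47), and was not called without CON replicate 1 (0.43) or CON replicate 4 (0.43). The COX19 call was also lost with library size alone and with a replicate block.

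PET100, a chaperone of complex IV assembly, was at 17.3 (the pair), 17.1, 14.7, 18.4 and 18.3 CPM in CON and 19.8 (the pair), 29.8, 24.6, 19.1 and 30.1 CPM in MET. Again the diets did not overlap, though on CPM without the TMM factors MET replicate 5 fell inside the CON range. In the 12 libraries it rose by 0.47 (SE 0.13), with an adjusted p of 0.0879 (edgeR, Benjamini-Hochberg), and it was at 0.52 in the 10 samples, with an adjusted p of 0.178 by the same edgeR test and adjustment. Removing the length trend gave 0.23 and 0.27, and no call in either. The PET100 call was kept without MET replicate 3 or 5 and lost without each of the other 10 libraries, at a log2 fold change of 0.39 or more. COA4, an assembly factor of the intermembrane space, was at 9.41 (the pair), 11.9, 9.59, 13.4 and 9.01 CPM in CON and 13.3 (the pair), 17.6, 16.7, 15.6 and 16.1 CPM in MET. The MET pair fell just under CON replicate 5, and the other 4 MET samples were above every CON sample. On CPM without the TMM factors all 5 were, the MET pair at 13.9 CPM just above CON replicate 5 at 13.85 CPM. COA4 rose by 0.56 (SE 0.13), with an adjusted p of 0.0684 (edgeR, Benjamini-Hochberg), and was at 0.57 in the 10 samples, with an adjusted p of 0.173 by the same edgeR test and adjustment. With the length trend removed it was at 0.41 in both, and called in neither. Its call was lost without CON replicate 1 (0.56), 3 (0.53) or 4 (0.50) or MET replicate 2 (0.52) or 6 (0.54). With library size alone or a replicate block neither COA4 nor PET100 was called. NDUFA4, a complex IV subunit despite its name and 1 of the 11 at the unadjusted p, was at 0.35 (SE 0.13) and 0.36 and was not called.

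For complex III, 7 further genes were tested, with a median of 0.30, 0 called by edgeR or DESeq2, and 2 in the 12 libraries and 1 in the 10 samples at an unadjusted edgeR p of at most 0.05. Among them CYC1, which is cytochrome c1, was at 0.36 (SE 0.17) and 0.31. The 6 assembly genes of ATP synthase had a median of 0.049 with 0 called by either tool and 1, DMAC2L, lower at that unadjusted p in the 12 libraries (−0.31). In the 10 samples it was at −0.32 and 0 of the 6 were at that unadjusted p. Complex II genes and cytochrome c made a list of 9 tested genes with a median of 0.15, 0 called by either tool and 1 at that unadjusted p. CYCS, cytochrome c itself, was at 0.41 (SE 0.20) and 0.34. The 14 regulators of mitochondrial gene expression had a median of −0.12, with 0 called by edgeR, 1 by DESeq2 and 3 lower at that unadjusted p, 2 in the 10 samples. These 3, named after their values were seen, were YY1 at −0.34 (SE 0.11), GABPA at −0.30 (SE 0.12) and TFAM, which packages and transcribes mitochondrial DNA, at −0.59 (SE 0.24). Their values in the 10 samples were −0.34, −0.28 and −0.62. The 14 genes are long, with a median of 4215 bases against 2807 bases over all tested genes. With the length trend removed their median was −0.044 in the 12 libraries and −0.048 in the 10 samples. YY1, GABPA and TFAM were then at −0.37, −0.15 and −0.69 in the 12 libraries, with GABPA no longer at that unadjusted p. Over all 62 tested genes of these lists, edgeR called 0 in the 10 samples, with 8 higher and 2 lower at that unadjusted p, and DESeq2 called 3. Of all tested genes, in either direction, edgeR called 4.413% in the 12 libraries and 0% in the 10 samples, and DESeq2 9.946% and 4.723%. In either direction 20.55% and 16.36% were at that unadjusted p, with 10.2% and 7.86% higher in MET.

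Markers of other liver cells were read in the same libraries. All 10 macrophage genes were above 0 in MET, with a median of 0.36 in the 12 libraries and 0.33 in the 10 samples. edgeR called 4 of them in the 12 libraries (CD14, C1QB, C1QC and AIF1) and 0 in the 10 samples, 6 and 5 were at an unadjusted p of at most 0.05, and DESeq2 called 6 and 4. Of all genes edgeR called 2.09% and 0% higher in MET, 10.2% and 7.86% were higher at that unadjusted p, and DESeq2 called 4.79% and 2.23%. With the length trend removed from the 12 libraries edgeR called CD14 alone (0.954% of all genes), and the median was 0.29. At that unadjusted p there were then 6 (9.62% of all genes). Their summed level was 1603 (the pair), 1898, 2073, 1869 and 1860 CPM in CON and 2252 (the pair), 2396, 2203, 2141 and 2513 CPM in MET, with MARCO the most abundant gene and none of the 10 at 0. Every MET sample was above every CON sample, MET replicate 5 included. On CPM without the TMM factors 3 of the 5 were, and MET replicates 4 and 5 lay within the CON range. Their part in the result was not tested. The erythroid genes, led by HBB, summed from 10.4 CPM in the CON pair to 966 CPM in CON replicate 2, and edgeR and DESeq2 called 0 of the 3 tested, with 0 at that unadjusted p. In bulk tissue, fewer cells of a type and less RNA per cell cannot be told apart.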

How the data were processed

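The authors deposited raw counts of reads per gene, made from stranded polyA libraries with FastQC 0.11.15, STAR 2.5.3a and featureCounts of Subread 1.5.2, with reads that map to several places left out. The counts of all 30336 genes were fitted in R 4.3.3 with edgeR 4.0.16: default expression filter (minimum count 10, minimum total 15), TMM factors, a model of diet alone, quasi-likelihood F test without robust estimation, Benjamini-Hochberg over 13212 genes and a threshold of 0.10. Levels are CPM on library sizes scaled by the TMM factors, and plain CPM was an alternative added after seeing the data. In the 10 samples the reads of near-identical libraries were summed. Exact two-sided permutation tests used log2 CPM with a prior count of 2, with 252 arrangements of 10 samples and 924 of 12 libraries. The length trend was removed by an offset for each library from a loess curve of span 0.5 on log2 length.

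Alternatives were other size factors, library size alone, no filter, a filter of 0.5 CPM in 2 libraries, a fit by DESeq2 1.42.0, limma 3.58.1 with voom weights, robust estimation, a replicate block and leaving out each library. The edgeR fit, the length trend offset, DESeq2, voom and the replicate block were tested on simulated data. The other alternatives, the summing of near-identical libraries and the permutation tests were not.

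Genes named are members past the threshold, the 2 most abundant per length and those with the highest and the lowest fold change in each complex, members with a paralogue in the set, ATP5IF1, UQCRFS1, UQCRC1, UQCRC2, pathway genes past the threshold, CYC1, CYCS and NDUFA4. Members and lists were chosen with earlier results of these data known. Of marker lists without a place in the report, edgeR called 0 of 4 lymphocyte, 0 of 4 bile duct and 0 of 6 endothelial genes tested in the 12 libraries, with 1 endothelial gene lower at an unadjusted p of at most 0.05. Of 7 stellate and fibroblast genes 1, LUM, was called and lower in the 12 libraries (−0.70), and 0 in the 10 samples (−0.70, with 1 lower at that unadjusted p). In either direction edgeR called 4.413% of all tested genes in the 12 libraries and 0% in the 10 samples. The shares at that unadjusted p were 20.55% and 16.36%.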

Additional observations from a re-analysis of the deposited data

Results flagged for a closer look

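3 values stood far from the other samples of their diet. In MET, ATP5F1B was at 368 CPM in replicate 5, while the other 4 samples lay between 566 and 627 CPM. UQCRC1 in the same sample had 113 CPM, and no other MET sample was under 206 CPM or over 242 CPM. In CON, replicate 2 had 22.6 CPM of ATP5F1E, where the rest ran from 9.32 to 12.7 CPM. Altogether 56 groups of samples were looked at in this way, and chance alone marks about 1 in 20 groups.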

How the results depend on the processing

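The direction of most members held under every size factor, filter and tool tried, with 37 of 38 above 0 in the 12 libraries and 36 in the 10 samples, and with 29 and 28 when the length trend was removed. Without 1 library it was 34 to 38 in the 12 libraries and 32 to 37 in the 10 samples. The number of members past the edgeR threshold, 1 in the 12 libraries, became 0 with library size alone, 0 with no filter, 0 by voom, 0 with the length trend removed, 0 in the 10 samples, 0 in the 10 samples with the length trend removed, and 4 by DESeq2. Leaving out 1 library gave 0 to 6, and 0 to 0 in the 10 samples. At an unadjusted p of at most 0.05 the 12 members became 2 with the length trend removed, 5 in the 10 samples and 1 with both, and 5 to 25 without 1 library (2 to 22 in the 10 samples).

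Over all genes the 583 called became 107 with library size alone, 238 with no filter, 1314 by DESeq2, 245 with the length trend removed, 0 in the 10 samples, 0 with both, and 26 to 565 without 1 library (0 to 0 in the 10 samples). The 3 pathway genes became 0 with library size alone, 5 by DESeq2, 1 with the length trend removed, 0 in the 10 samples, 0 with both, and 0 to 4 without 1 library (0 to 0 in the 10 samples). The cause was not tested.

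A replicate block, which pairs libraries of the same number, gave 0 members, 6 genes in all and 0 pathway genes past the threshold. Correlations do not settle whether the numbers pair the diets. Same-number libraries correlated at 0.148, 0.0369, −0.132, −0.0113, −0.104 and −0.19. No CON library correlated best with the MET library of its own number. CON replicate 1 did so with MET replicate 3, which is near-identical to MET replicate 1.

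With the length trend removed the medians in the 10 samples were 0.13 for complex III, 0.056 for complex IV and 0.053 for ATP synthase, against 0.31, 0.31 and 0.26 in the 12 libraries. These changes of both choices at once exceeded the SD between samples in complex IV. Removing the length trend from the 12 libraries alone gave 0.17, 0.11 and 0.080, within that SD in each complex. Without 1 library the medians lay between 0.22 and 0.41 for complex III, 0.22 and 0.40 for complex IV and 0.15 and 0.35 for ATP synthase, and in the 10 samples between 0.16 and 0.40, 0.15 and 0.38, and 0.12 and 0.36.

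Some single genes changed direction, and the cause was not tested. With the length trend removed from the 12 libraries and from the 10 samples, these were COX5B (−0.013, −0.016), COX7A2L (−0.054, −0.11), COX7A2 (−0.12, −0.13), COX7B (−0.013, −0.025), ATP5MC2 (−0.036, −0.041) and ATP5MC3 (−0.0023, −0.046). Of members not otherwise named, COX6C (−0.043, −0.044) and ATP5MG (−0.11, −0.057) changed too, and ATP5PB in the 10 samples (−0.021). COX7A2L was also at −0.0087 in the 10 samples and −0.0060 there by DESeq2. Without 1 library, the ranges in the 12 libraries and then the 10 samples were −0.010 to 0.11 and −0.091 to 0.061 for COX7A2L, −0.73 to 0.042 and −0.56 to 0.24 for ATP5F1E, −0.044 to 0.20 and −0.090 to 0.21 for COX7B, and −0.011 to 0.17 and −0.039 to 0.18 for ATP5MC2. In the 10 samples alone they were −0.0060 to 0.19 for COX7A2, −0.062 to 0.22 for UQCRC2 and −0.0032 to 0.17 for ATP5F1B. Over 28 named genes and all settings, 881 of 980 fits kept direction and side of the threshold, 50 lost the threshold, 12 gained it and 37 changed direction.

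Members had at least 18 reads in every library if tested. The promoter motif search was not run.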

Other observations

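The count files also hold 22 mitochondrial entries, 2 ribosomal RNAs and 20 transfer RNAs. The large ribosomal RNA was at 365 (the pair), 404, 370, 181 and 329 CPM in CON and 514 (the pair), 435, 321, 324 and 505 CPM in MET. The MET pair, MET replicate 2 and MET replicate 6 were above every CON sample. Its log2 fold change was 0.38 (SE 0.19) in the 12 libraries and 0.35 in the 10 samples, and that of the small ribosomal RNA 0.41 (SE 0.21) and 0.40. Neither was called by edgeR.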
